A study of Mus musculus with 24 samples.

Results

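The genes described here are the collagens, the chains of the main structural proteins of the extracellular matrix. All mouse genes whose platform symbol has the form Col, number, a, number were taken, each by its single-symbol probe set of highest mean over the arrays. This gave 44 collagen genes from 46 probe sets, of 19938 genes in all, and 39 of the 44 lay above the filter on dim genes (a mean log2 intensity of 5.52, the 30th percentile) among 13956 genes tested. The tissue was the suprachiasmatic nucleus (SCN), which sets the body's daily timing from the hypothalamus, of C57/BL6 mice that were entrained to a light-dark schedule and then kept in complete darkness. Each of the 24 arrays held RNA pooled from 3 mice, with pools taken 2 h apart, the first at circadian time (CT) 18 and the last at CT 64. The second cycle, CT 42 to CT 64, and the first cycle, CT 18 to CT 40, hold 12 arrays each at the same circadian times, with no replicate at any time. All groups share the strain, the tissue and the darkness, and no genotype or drug differs between them.

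Collagen chains wind around each other into a helix in the endoplasmic reticulum, where prolyl and lysyl hydroxylases and the chaperone HSP47 (Serpinh1) act on them, and are then secreted and assembled into fibrils, networks or filaments. In the brain, fibrillar collagens lie mainly in the meninges and around larger vessels, where fibroblasts make them, and type IV collagen lines every vessel as basement membrane made by endothelial cells and pericytes. Neurons and glia are not known as main sources of fibrillar collagen. The collagens were therefore set both against time of day and against markers of the fibroblasts, endothelial cells and mural cells (pericytes and smooth muscle) that a dissected piece of SCN tissue can hold. In bulk tissue, fewer cells of a type and less RNA per cell cannot be told apart.

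Markers of the SCN and of other tissues differed in how far they varied between arrays. The SCN peptide gene Avp lay at a log2 intensity of 9.79 at the lowest, 11.10 at the median and 11.62 at the highest in the second cycle, against 10.18, 10.94 and 11.48 in the first cycle. Vip lay at 9.50, 10.03 and 10.75 against 9.53, 9.93 and 10.53, and Six6, a transcription factor of the SCN, at 7.28, 8.02 and 8.36 against 7.56, 7.99 and 8.41. Against median ranges of 1.34 for the SCN neuron markers and 1.40 for the oligodendrocyte markers, the leptomeningeal fibroblast markers had a median range of 1.75 log2 units. Of 18 listed markers 17 were measured and 16 passed the filter (Lum did not), and their mean of centred log2 values, called the fibroblast mean from here on, lay between -0.65 and 0.44 in the second cycle and between -0.91 (CT 32) and 0.63 (CT 20) in the first. Ogn, a small leucine-rich matrix protein of fibroblasts, ranged over 6.03, 8.16 and 8.63 (lowest, median, highest) in the second cycle and over 5.64, 7.72 and 8.95 in the first. Its range of 3.31 log2 units was the widest of the 16 markers. The pituitary hormone genes Gh and Prl reached 11.96 and 10.04 at CT 20, and Ttr of the choroid plexus 11.18 at CT 28. Ttr ranged over 4.77 log2 units, but the 5 tested choroid plexus markers over 0.61 at the median. The 4 tested pituitary markers ranged over 0.58 to 7.37. Aqp1, Otx2 and Slc4a5 of the choroid plexus list and Cga, Fshb and Tshb of the pituitary list lay below the filter. The narrowest spread of values belonged to CT 40, CT 62 and CT 64, which also had the 3 highest means over 1178 olfactory and vomeronasal receptor genes, and that mean is called the array background here.

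Collagen log2 intensities were moderate and varied little between arrays. Means over 24 arrays lay between 4.85 and 7.51, and 38 of the 44 genes lay above 5.65, the 95th percentile of the receptor genes, which act mainly in sensory tissue. Intensities of different probe sets depend on their probes, so no order of abundance between collagens is drawn from them. The 5 genes below the filter were Col12a1 (5.48), Col19a1 (5.33), Col8a2 (5.22), Col4a6 (5.14) and Col28a1 (4.85), and Col5a2 (5.57) was the nearest above it. The standard deviation over arrays was 0.12 at the median of the 39 collagens (0.06 to 0.20), against 0.13 for all genes tested and 0.48 for the fibroblast markers. The collagen values thus spread about as little as those of an ordinary gene and far less than the fibroblast markers on the same arrays. The collagens were also dimmer, with a median level of 6.36, against 7.24 for all tested genes and 7.13 for the fibroblast markers. Spreads among genes of like level were not compared, so a small spread here does not show that the transcripts were steady.

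The fibrillar class, which forms the tensile fibrils, had 11 measured genes, all above the filter, with means from 5.57 to 7.03. Col1a2, a chain of type I collagen, had log2 intensities of 6.64 (CT 50), 6.91 and 7.25 (CT 54) at the lowest, median and highest in the second cycle and of 6.49 (CT 26), 6.96 and 7.07 (CT 36) in the first. The cycles overlapped, and CT 26, CT 28 and CT 50 were the lowest arrays. Col11a2 and Col11a1, chains of the type XI collagen that is best known from cartilage, ranged over 6.86, 7.01 and 7.19 and over 6.71, 6.78 and 6.95 in the second cycle, against 6.87, 7.03 and 7.16 and 6.74, 6.81 and 6.92 in the first. Both had their first-cycle maximum at CT 30. Col3a1, the chain of type III collagen that accompanies type I in soft tissue and vessel walls, ranged over 5.97, 6.23 and 6.44 in the second cycle and over 5.83, 6.16 and 6.41 in the first, and its lowest array was again CT 26.

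Among the fibril-associated collagens, which sit on the surface of fibrils, 9 genes were measured and 7 passed the filter. Col9a3 and Col9a2, chains of type IX collagen, had log2 intensities of 7.27, 7.52 and 7.63 and of 6.98, 7.22 and 7.30 in the second cycle, with both minima at CT 54, against 7.44, 7.49 and 7.77 and 7.09, 7.22 and 7.39 in the first. Their cycles overlapped. The membrane-spanning class had 4 genes, all above the filter, among them Col25a1, a neuronal collagen whose shed part was found in human amyloid plaques, at 7.24, 7.37 and 7.59 in the second cycle and 7.25, 7.41 and 7.53 in the first. Col26a1, which has no close family, ranged over 6.95, 7.11 and 7.40 in the second cycle and 6.92, 7.08 and 7.33 in the first, with maxima at CT 64 and CT 40.

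The 6 beaded-filament genes of type VI collagen, which ties cells to the matrix, all passed the filter. Col6a6 lay at 6.54, 6.73 and 6.96 in the second cycle and at 6.57, 6.72 and 6.98 in the first. A second probe set of Col6a6 averaged 4.56, below the filter, so its level rests on the choice of probe set. Of 6 basement membrane genes 5 passed, with Col4a1 and Col4a2, the chains of the vascular type IV network, at 6.19, 6.35 and 6.44 and at 6.52, 6.63 and 6.71 in the second cycle, against 6.03, 6.30 and 6.46 and 6.44, 6.63 and 7.04 in the first. For both the first-cycle maximum was the array at CT 40. The other network-forming class had 3 of 4 genes above the filter, and both multiplexins, Col15a1 and Col18a1 of vascular basement membranes, passed.

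**Figure D1:**
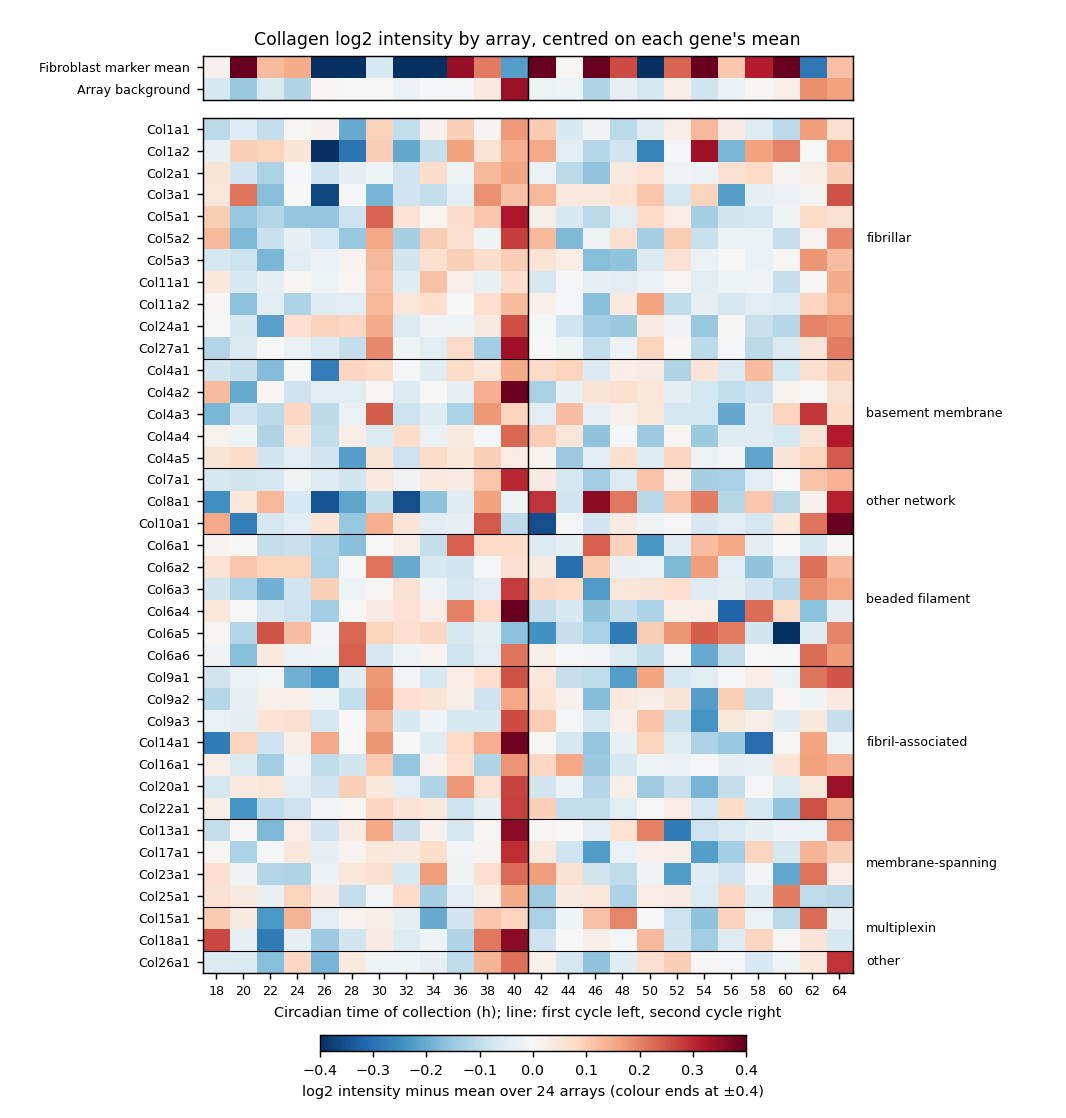
Log2 intensity of the 39 collagens above the filter on each of 24 arrays, minus the gene's mean, grouped by class, with the fibroblast mean and the array background above. Colours end at 0.4 in either direction, so the fibroblast mean runs past the scale. The column at CT 40 is the highest for 20 of the 39 genes, and Col1a2 and Col8a1 follow the fibroblast row rather than that column.

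The first comparison asked whether collagen transcripts follow time of day. None of the 39 passed the test for a 24-h rhythm (limma's moderated F test of the cosine and sine terms with Benjamini-Hochberg adjustment over all genes, threshold 0.05), where 7.65% of all tested genes did, and 7 collagens had an unadjusted p under 0.05. Fitted amplitudes, in log2 units from mean to peak, lay between 0.0019 and 0.13 with a median of 0.058, against 0.069 for all tested genes. Col3a1 came closest, with an amplitude of 0.11 ± 0.04 (SE over 24 arrays), a fitted peak at CT 17.4 and an adjusted p of 0.0858. Col5a3, a type V chain that helps start fibrils, had an amplitude of 0.08 ± 0.03 with a fitted peak at CT 12.0 (adjusted p = 0.0980), and Col9a1 of type IX collagen 0.10 ± 0.03 at CT 13.4 (adjusted p = 0.115, limma). Col5a3 lay at 6.26, 6.44 and 6.61 in the second cycle and at 6.25, 6.43 and 6.56 in the first, and Col9a1 at 5.89, 6.10 and 6.37 against 5.88, 6.10 and 6.37. Without the array at CT 54, 1 collagen passed, Col1a2.

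**Figure D2:**
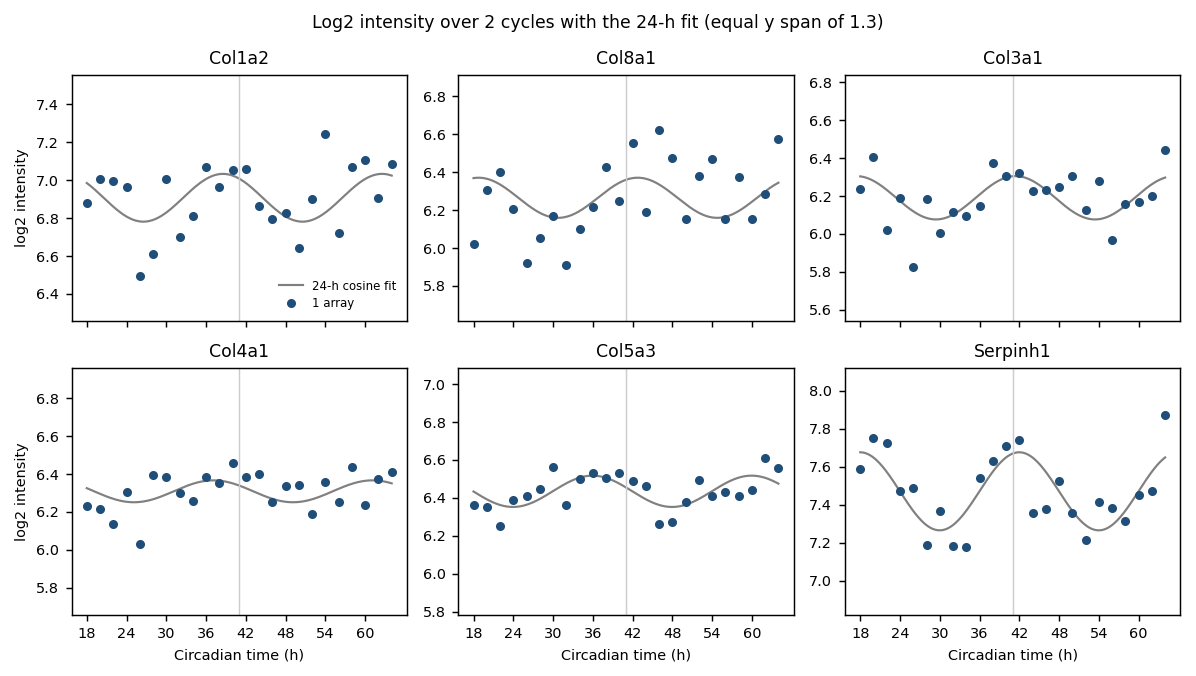
Log2 intensity of 5 collagens and of Serpinh1, the collagen chaperone, against circadian time, with 1 point per array, the 24-h cosine fit as a line, and a grey line between the first and the second cycle. All panels span 1.3 log2 units. The Serpinh1 fit has an amplitude of 0.21, above the 0.11 of Col3a1 and the 0.08 of Col5a3.

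The fitted peaks of the collagens fell close together in spite of this. They lay between CT 12 and CT 18 for 31 of the 39 genes (79.5%), against 27.6% of all tested genes. That window holds CT 40, CT 62 and CT 64, and 31 collagens (79.5%) had their highest value on 1 of these 3 arrays, against 22.2% of all tested genes, while 0 collagens and 42.3% of all tested genes had their lowest value there. Without these 3 arrays 14 of 39 fitted peaks (35.9%) lay in the window, against 27.2% of all tested genes, and the median amplitude of the collagens was 0.038, against 0.061. With 1 array per time, a peak near these times and a high array cannot be told apart. At the median the collagens were also dimmer than the tested genes (mean log2 intensity of 6.36 against 7.24). Shares among genes of like level were not computed.

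A few genes that act on collagen chains passed the rhythm test. Of 17 tested genes of hydroxylation and folding, 3 passed the rhythm test, a share of 17.6% where the background was 7.65%. Serpinh1, whose product HSP47 binds collagen in the endoplasmic reticulum, lay at 7.22, 7.40 and 7.87 (lowest, median, highest) in the second cycle and at 7.18, 7.51 and 7.75 in the first. Its maxima were at CT 64, an array of high background, and at CT 20. The Serpinh1 fit had an amplitude of 0.21 ± 0.04 with the peak near CT 18 (adjusted p = 0.00481, limma). P4ha1 and P4ha2, catalytic chains of the prolyl hydroxylase, had amplitudes of 0.17 ± 0.03 and 0.15 ± 0.04 and peaks at CT 20.7 and CT 20.2 (adjusted p = 0.0121 and 0.0450, limma). The second-cycle maximum of P4ha1 was also at CT 64, and that of P4ha2 at CT 46. Of 6 genes of collagen breakdown and its inhibitors, Mmp14, a membrane-bound collagenase, passed, peaking at CT 23.5 with an amplitude of 0.25 ± 0.03 (adjusted p = 0.000186). Its highest values were 7.10 at CT 20 in the first cycle and 7.04 at CT 46 in the second. How far the calls of these partner genes depend on single arrays was not examined. No gene passed among 7 of extracellular maturation and crosslinking, 7 collagen receptors and 14 other basement membrane proteins, with limma, and 2 genes of each list had an unadjusted p under 0.05.

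The second comparison set the second cycle against the first, which asks whether levels drifted over 2 days in darkness. No collagen passed the test, nor did any other gene (0% by limma, cycle term beside the 24-h terms), and 2 collagens had an unadjusted p under 0.05. Differences, second minus first cycle, were positive for 17 and negative for 22 collagens and lay between -0.12 and 0.20 log2 units. Col8a1, a short-chain collagen of vessel walls and other subendothelial matrix, differed most, at 6.15, 6.38 and 6.62 in the second cycle and 5.91, 6.19 and 6.43 in the first (difference 0.20 ± 0.06, adjusted p = 0.409). The 2 cycles overlapped for Col8a1, and CT 32 and CT 26 of the first cycle were its lowest arrays. The fitted difference was also positive for all 16 fibroblast markers, all 10 oligodendrocyte markers and 10 of 12 SCN neuron markers. It was positive for 6 of 9 astrocyte, 7 of 14 endothelial, 6 of 14 mural, 2 of 5 choroid plexus and 0 of 4 pituitary markers. None passed the test, and the median difference over all tested genes was 0.0031. With the fibroblast mean as a covariate the Col8a1 difference was 0.13 (adjusted p = 0.647, limma). Means of other cell types were not tried as covariates here. Col6a4 of type VI collagen was lower by a difference of -0.12 ± 0.06 (adjusted p = 0.571), with 5.86, 6.10 and 6.40 in the second cycle and 6.04, 6.20 and 6.72 in the first. Col14a1, which binds to fibrils, differed by -0.11 ± 0.06 (adjusted p = 0.617), with 5.42, 5.69 and 5.89 against 5.45, 5.78 and 6.12.

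The change in rhythm between cycles was not called for any collagen or for any other gene (0% by limma's interaction test), and 0 collagens had an unadjusted p under 0.05. The 3 smallest p-values were those of Col6a6, Col18a1 and Col5a1, with differences in the 24-h terms of 0.14 ± 0.06, 0.15 ± 0.07 and 0.13 ± 0.06 log2 units. Col18a1 lay at 5.76, 5.90 and 6.03 in the second cycle and at 5.62, 5.87 and 6.26 in the first, and Col5a1 at 6.21, 6.31 and 6.42 against 6.18, 6.37 and 6.66. Both had their first-cycle maximum at CT 40.

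The third comparison asked which collagens varied with the fibroblast mean, beside time of day. This mean also varied with the means of other cell types, given below, so a slope on it is not particular to fibroblasts. Only Col1a2 and Col8a1 passed, 2 of 39 collagens (5.13%), where 4.51% of all tested genes passed in either direction (limma slope on the fibroblast mean beside the 24-h terms). Col1a2 rose by 0.29 ± 0.06 log2 per unit of the fibroblast mean (adjusted p = 0.00189) and Col8a1 by 0.30 ± 0.07 (adjusted p = 0.00941). At CT 26, CT 28 and CT 32, where the fibroblast mean was -0.78, -0.79 and -0.91, Col1a2 read 6.49, 6.61 and 6.70 and Col8a1 5.92, 6.05 and 5.91. At CT 42 and CT 54, where it was 0.44 on both arrays, Col1a2 read 7.06 and 7.25 and Col8a1 6.55 and 6.47. Other arrays with a high fibroblast mean were lower, with Col1a2 at 7.0 and Col8a1 at 6.31 at CT 20, where the mean was highest (0.63), and Col8a1 at 6.16 at CT 60 (0.43), close to its 6.15 at CT 50 (-0.65). Both calls held when any 1 array was left out, with adjusted p up to 0.0158 for Col1a2 and 0.0442 for Col8a1, each without CT 54. With the endothelial mean in the same fit neither was called (adjusted p = 0.288 and 0.883), and the fibroblast and endothelial means correlated at r = 0.77.

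No other chain of these tissues passed. Col1a1, the partner of Col1a2 in type I collagen, had a slope of 0.03 ± 0.05, Col3a1 of 0.06 ± 0.06 and Col4a1 of 0.01 ± 0.05 on the fibroblast mean, none past the test. Over all 39 collagens 10 slopes were positive and 29 negative, with a median of -0.053 against 0.018 for all tested genes. All 29 collagens with a negative slope had a positive slope on the array background. The fibroblast mean correlated with the array background at r = -0.43 once the 24-h terms were removed (adjusted permutation p = 0.0507). The part of the array background in the negative slopes was not tested. The fibroblast mean added 42.4% of the variance of Col1a2 and 37.9% of that of Col8a1 to what the 24-h terms held, but 4.91% at the median of the collagens, against 4.47% for all tested genes and 73.1% for the fibroblast markers themselves. The share of collagens called on the fibroblast mean, 5.13%, lay near the background of 4.51%. This count alone does not tell which cells or structures the 39 genes belong to.

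**Figure D3:**
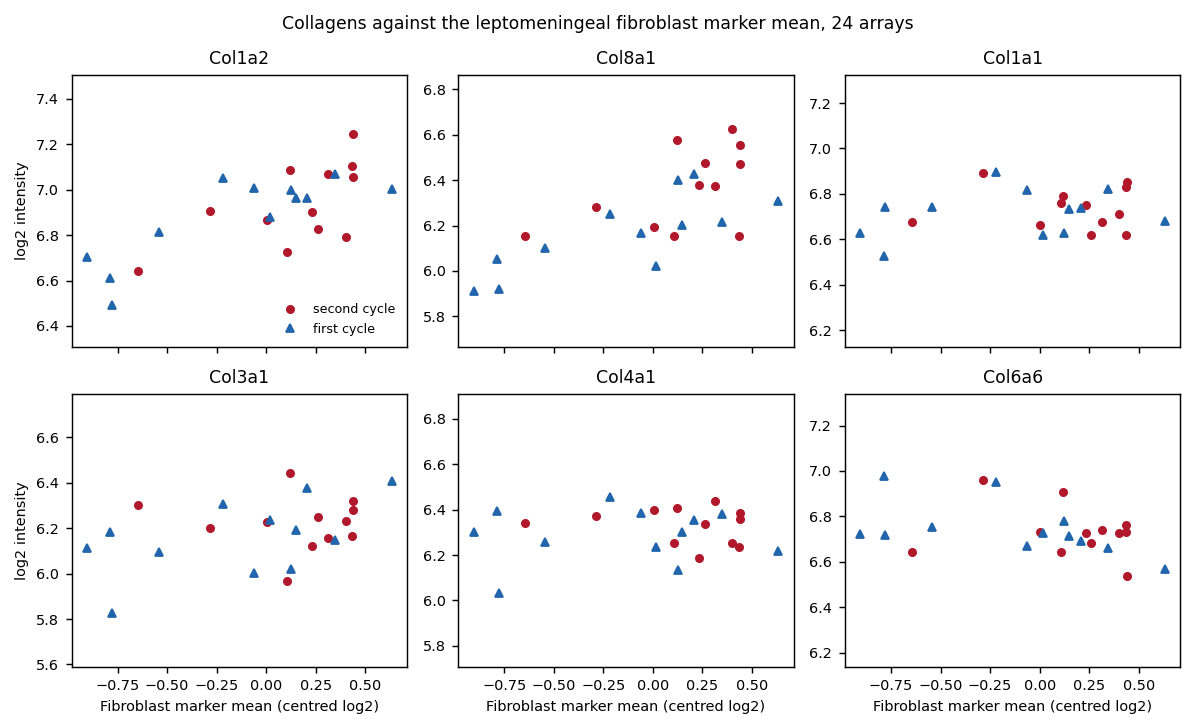
Log2 intensity of 6 collagens against the fibroblast mean on each of 24 arrays, with red circles for the second cycle and blue triangles for the first. Panels span 1.2 log2 units. Col1a2 and Col8a1 climb with slopes of 0.29 and 0.30, while Col1a1, Col3a1 and Col4a1 have slopes of 0.03, 0.06 and 0.01 and Col6a6 has a slope of -0.15.

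Several matrix partners that are not collagens also followed the fibroblast mean, on which 4.03% of all tested genes passed with a rise. Pcolce, the enhancer that speeds removal of the type I propeptide, had a slope of 0.92 ± 0.06 (adjusted p = 1.61e-11, limma), with 6.84, 7.35 and 7.76 in the second cycle and 6.34, 7.03 and 7.67 in the first, and it was the 1 of 7 maturation genes that passed. Of 14 other basement membrane proteins 5 rose, led by the laminin chain Lama4 (0.38 ± 0.05, adjusted p = 9.26e-06), the linker Nid1 (0.40 ± 0.07) and the laminin chain Lama2 (0.25 ± 0.05). Of 7 receptors 3 rose, namely the collagen-activated kinase Ddr2 (0.35 ± 0.06) and the integrin chains Itgb1 and Itga10. Timp3, a matrix-bound inhibitor of metalloproteinases, rose by 0.45 ± 0.08, and 0 of 17 hydroxylation and folding genes passed, with 2 at an unadjusted p under 0.05. All 10 tested oligodendrocyte markers, 3 of 9 astrocyte, 4 of 14 endothelial and 4 of 14 mural markers rose as well, and the fibroblast mean correlated with the oligodendrocyte and astrocyte means at r = 0.79 and 0.76 once the 24-h terms were removed (rho = 0.81 and 0.77, r = 0.81 and 0.80 without CT 28 and CT 32). It correlated with the mural mean at r = 0.81 (rho = 0.80, r = 0.80 without those arrays) and with the endothelial mean at r = 0.77 (rho = 0.77, r = 0.75). Among 8 means compared, the adjusted permutation p was at most 0.0001 for these 4. For the SCN neuron mean r was 0.42 (adjusted permutation p = 0.0512) and rho 0.54 (adjusted permutation p = 0.0117). The part of these other cell types in the slopes was not tested.

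On the endothelial mean 5 of 39 collagens passed (12.8%), where 9.22% of all tested genes did. By direction 2 collagens rose and 3 fell, where 7.67% of all tested genes rose and 1.55% fell. The endothelial mean correlated with the array background at r = -0.66 once the 24-h terms were removed. Col8a1 and Col1a2 rose by 1.51 ± 0.45 and 1.25 ± 0.40 log2 per unit (adjusted p = 0.0308 and 0.0463, limma), and Col6a3, Col22a1 and Col6a6 had slopes of -1.11 ± 0.30, -1.02 ± 0.30 and -0.93 ± 0.30 (adjusted p = 0.0194, 0.0323 and 0.0457). None was called with the fibroblast mean in the same fit, and the 3 negative slopes lost their call once CT 40, CT 62 and CT 64 were dropped. The calls rested on single arrays. Col6a3 was lost without CT 40, Col8a1 without CT 26, CT 32, CT 46 or CT 54, Col22a1 without any of 5 arrays, Col6a6 without any of 14 and Col1a2 without any of 15. Col4a1, the vascular basement membrane chain, did not pass. On the mural mean 1 of 39 collagens passed, against 4.2% of all tested genes: Col1a2 rose by 0.92 ± 0.25 (adjusted p = 0.0273), a call lost without CT 26, CT 28, CT 50 or CT 54.

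Many collagens varied with the array background. This comparison was added after the values were seen. At the median the collagens were dimmer than the tested genes (mean log2 intensity of 6.36 against 7.24), and genes of like level were not compared. The slope on the array background beside the 24-h terms was positive for 35 of 39 collagens, with a median of 0.48 against -0.22 for all tested genes, and 16 rose with it, where 37.3% of all tested genes passed in either direction and 9.66% as a rise. Col6a3, a type VI chain, had the steepest slope of 1.05 ± 0.20 (adjusted p = 0.000267), and read 5.95, 5.86 and 5.83 at CT 40, CT 62 and CT 64, beside medians of 5.72 in the second cycle and 5.64 in the first. Col22a1, a collagen of tissue junctions, had a slope of 0.98 ± 0.20 and Col14a1 of 0.98 ± 0.30, and Col6a6 was among the others with 0.86 ± 0.21. The 16 came from 7 of the 8 classes, and included Col27a1, Col24a1, Col17a1, Col7a1 and Col4a2, while Col1a2, Col8a1, Col3a1 and Col6a1 had slopes from -0.25 to -0.05 that did not pass. Without CT 40 the count was 4 (Col6a3, Col6a6, Col22a1 and Col10a1), and without CT 40, CT 62 and CT 64 it was 0 collagens and 0% of all tested genes.

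**Figure D4:**
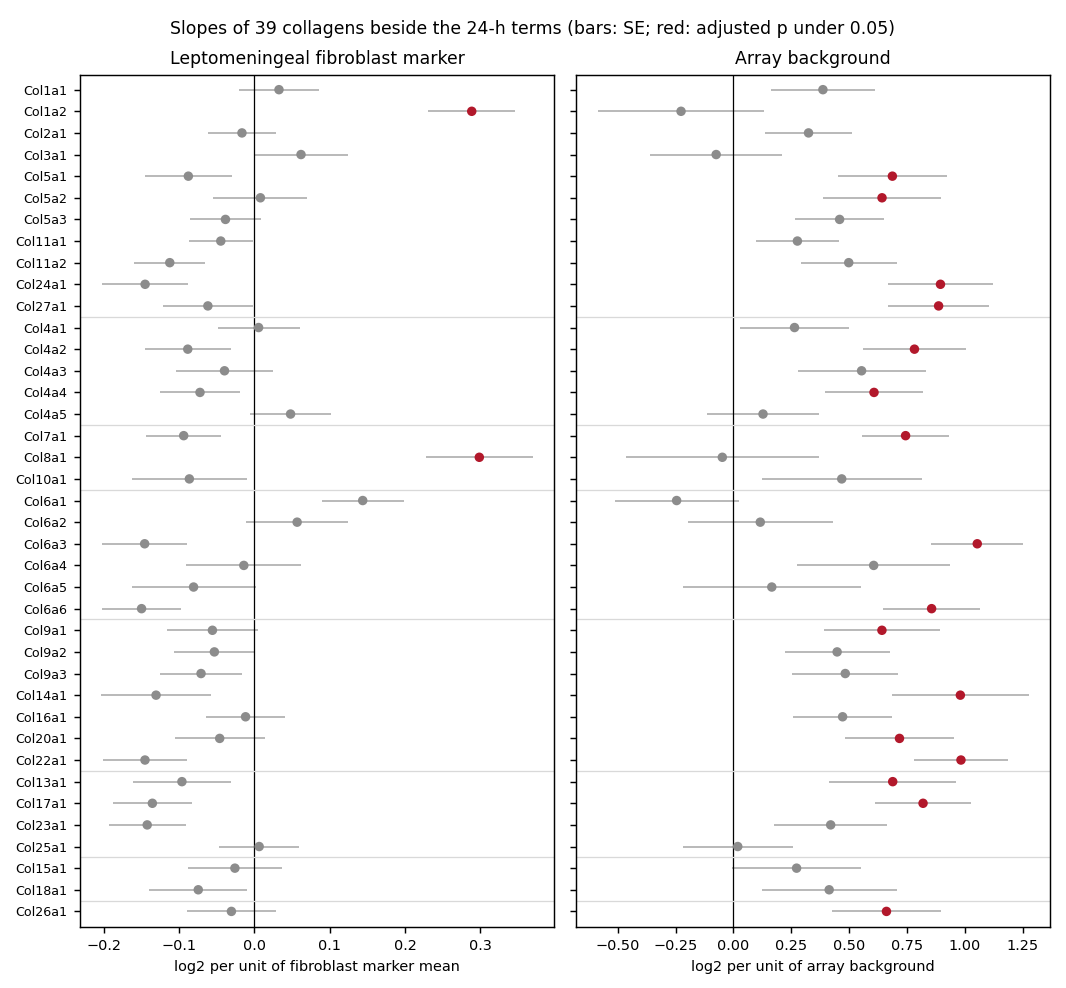
Slopes of the 39 collagens on the fibroblast mean (left) and on the array background (right), both beside the 24-h terms, in log2 per unit, with standard errors as bars and red points for an adjusted p under 0.05. On the left Col1a2 and Col8a1 stand at 0.29 and 0.30 with the rest at or below 0.14, and on the right 35 of 39 points lie above 0.

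The collagens shared part of their variation across arrays. Over the 741 pairs of the 39 genes the median Pearson r across 24 arrays, with the 24-h terms removed, was 0.28, and 614 pairs (82.9%) were positive, against a median of 0.022 and 52.6% for pairs of all tested genes. With the array background removed as well the median was 0.14, against 0.0060. These pairs share arrays and genes and carry no test, and no pairs of genes of like level were set beside them.

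Of 17 pairs listed for their biology, 3 had an adjusted permutation p under 0.05 by Pearson's r (100000 permutations, Benjamini-Hochberg over the 17) and none by Spearman's rho. Col9a2 and Col9a3, chains of one molecule, had r = 0.69 (permutation p = 0.00023, adjusted 0.00391) and rho = 0.55 (adjusted permutation p = 0.101), and r = 0.56 without CT 46 and CT 54. Col5a1 and Col5a2 of type V collagen had r = 0.63 (permutation p = 0.00093, adjusted 0.00791) and rho = 0.50 (adjusted permutation p = 0.122), and r = 0.38 without CT 30 and CT 40, so their relation rests in part on those arrays. Col3a1 and Col4a1 had r = 0.60 (permutation p = 0.0017, adjusted 0.0097) and rho = 0.42 (adjusted permutation p = 0.215), and r = 0.44 without CT 26 and CT 64. The defining chain pairs of the meninges and vessels did not pass: Col1a1 with Col1a2 had r = 0.32 (adjusted permutation p = 0.249) and Col4a1 with Col4a2 r = 0.18 (adjusted permutation p = 0.623).

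Promoter windows from RefSeq (GRCm38.p6, 250 bases before to 50 after each gene start) matched 35 of the collagens in 38 windows. They are shown for Col1a2 and Col8a1, which passed on the fibroblast mean, and for Col4a1 and Col4a2, which are transcribed in opposite directions and whose windows share 78 bases. Coordinates are chr6:4505368-4505667 (plus strand), chr16:57754688-57754987 (minus strand), chr8:11312777-11313076 (minus strand) and chr8:11312555-11312854 (plus strand), each printed 5′ to 3′ on the gene's strand. Capitals mark CCAAT, or ATTGG on the other strand, which occur in the Col1a2, Col4a1 and Col4a2 windows.
Col1a2: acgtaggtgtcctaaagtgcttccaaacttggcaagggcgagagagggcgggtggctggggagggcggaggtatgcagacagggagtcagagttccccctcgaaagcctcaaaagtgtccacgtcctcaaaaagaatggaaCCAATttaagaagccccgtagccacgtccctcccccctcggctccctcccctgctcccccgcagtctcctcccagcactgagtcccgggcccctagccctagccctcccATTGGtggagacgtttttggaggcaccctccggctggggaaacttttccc
Col8a1: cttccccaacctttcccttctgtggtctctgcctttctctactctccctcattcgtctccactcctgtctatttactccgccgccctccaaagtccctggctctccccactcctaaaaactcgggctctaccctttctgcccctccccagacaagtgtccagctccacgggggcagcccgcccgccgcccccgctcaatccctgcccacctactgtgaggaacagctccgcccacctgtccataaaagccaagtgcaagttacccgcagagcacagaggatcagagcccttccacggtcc
Col4a1: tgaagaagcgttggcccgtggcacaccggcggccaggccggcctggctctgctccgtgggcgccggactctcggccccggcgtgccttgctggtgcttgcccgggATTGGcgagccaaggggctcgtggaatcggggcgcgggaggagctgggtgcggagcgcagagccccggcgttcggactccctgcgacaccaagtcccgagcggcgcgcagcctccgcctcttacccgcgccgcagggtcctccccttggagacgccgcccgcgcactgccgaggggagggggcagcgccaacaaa
Col4a2: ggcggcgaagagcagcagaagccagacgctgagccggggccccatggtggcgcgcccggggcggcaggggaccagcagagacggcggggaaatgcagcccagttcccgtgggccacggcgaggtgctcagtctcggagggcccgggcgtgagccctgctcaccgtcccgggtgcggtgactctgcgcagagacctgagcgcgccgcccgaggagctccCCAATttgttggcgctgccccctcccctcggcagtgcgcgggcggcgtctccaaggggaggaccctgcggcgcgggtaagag

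The motif CACGTG, the E-box that the clock proteins CLOCK and BMAL1 can bind, was in 0 of the 38 collagen windows and in 7.15% of 32851 windows of the same length. CCAAT or ATTGG was in 13 (34.2%) of the collagen windows and in 37.4% of all, and GGGCGG or CCGCCC in 23 (60.5%) and 35.7%. The median GC content of the collagen windows was 59.8%, against 52.7% of all, and a match to these letters is a description only. Although Col4a1 and Col4a2 share part of their windows, their log2 intensities across arrays correlated no more than stated above.

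Genes most like Col1a2 across the 24 arrays, with the 24-h terms removed, were Igfbp6 (r = 0.83), an IGF-binding protein, then Serpind1, Anxa1, Fam180a, Foxc2, Slc5a5, Car13 and Fbln1 (r = 0.77). None is among the 16 tested fibroblast markers, a short list, and Col1a2 itself correlated with the fibroblast mean at r = 0.75. Genes most like Col4a1 were Cgn (r = 0.74), Ido2, Aire, Stra6, Bmp1, Tnfrsf13c, G6pd2 and Nkx2-5 (r = 0.65), of which Bmp1 encodes the protease that trims fibrillar procollagens. These correlations are a description over arrays that share their background and dissection.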

How the data were processed

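RNA of the SCN, pooled in equal amounts from 3 mice per time, was amplified with NuGen Pico WTA V2, biotin-labelled and hybridised to arrays, per the labels' protocols. The deposited values are on a log2 scale, 1 per probe set and array, after normalisation by the authors with RMA 1.3.1.187 in Affymetrix Expression Console, per the submitters' processing notes. Background settings and a genome build are not given in the sources used here. Column medians were 6.24 to 6.35, genes were not centred, and values were used as deposited.

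Of 35556 probe sets, 21789 had 1 gene symbol in the platform annotation, 1621 several and 12146 were not listed. All 44 collagens matched RefSeq names by Entrez identifier. Models were fitted with eBayes in limma 3.58.1 (R 4.3.3), two-sided, with Benjamini-Hochberg adjustment at 0.05. Marker genes were left out of the genes tested against their own mean, and each mean entered beside 24-h cosine and sine terms. Since no time was repeated, the residual spread served as error. It holds differences between pools, array noise and any departure from a 24-h cosine, which cannot be told apart. The number of arrays limits the precision. The fits were run on simulated data with independent noise for each gene and array. Such data hold no variation shared between genes, so they do not measure false calls under an array background.

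The members and lists were chosen with earlier results of these data known. The rule named the 8 collagens of highest mean, the called collagens or the 3 with the smallest p of each comparison, up to 3 called genes per matrix list, and the 8 genes most like Col1a2 and Col4a1. Other genes given with values, the array background comparison and the counts of peak windows and highest arrays were chosen after values were seen. Alternatives covered the filter, normalisation, array weights, the prior, probe set choice, covariates, and leaving out arrays. Among the collagens only Col6a5 changed its probe set in that alternative, since the second probe set of Col6a6 lay below the filter. The probe set alternative is thus no check on the other collagens. Python 3.11.15, NumPy 2.4.6, SciPy 1.17.1, pandas 2.3.3 and matplotlib 3.10.9 were used.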

Additional observations from a re-analysis of the deposited data

How the results depend on the processing

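No collagen was called for a cycle change or a change in rhythm under any alternative run. For the 24-h rhythm 0 collagens were called, except 1 (Col23a1) with the fibroblast mean as a covariate, and 0 to 1 when each array was left out (Col1a2 without CT 54). On the fibroblast mean the count of 2 was 1 with the 50th percentile filter, where Col8a1 was not tested, 0 with the endothelial mean in the fit, and 2 to 3 with each array left out. On the endothelial mean the count of 5 was 2 with the 50th percentile filter, 8 with median centring, 2 with array weights, 2 without CT 40, CT 62 and CT 64, 1 given the array background as a covariate, 0 with the fibroblast mean in the fit, where the Col1a2 slope was -0.13, and 2 to 7 with each array left out. On the mural mean the count of 1 was 2 with the 50th percentile filter, 2 with quantile normalisation, 3 with median centring, and 0 to 2 with each array left out. On the array background the count of 16 was 0 without CT 40, CT 62 and CT 64, where the slopes of Col13a1 and Col9a1 were -0.33 and -0.17, 12 with the fibroblast mean as a covariate, and 4 to 17 with each array left out. Of the listed pairs 3 were called, 4 with the 24-h terms kept and 2 with the array background removed. Where no construction of the alternative shows it, the cause was not tested. Pairing the arrays of both cycles by circadian time, as a block, called 0 collagens between cycles. Pools of 3 mice without replicates give no measure of spread within a time, and small amplitudes near the noise of an array can be missed.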
